A study of Mus musculus with 6 samples.

Results

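The NF-κB genes examined here were a fixed list of 10, comprising the 5 transcription factor subunits Nfkb1, Nfkb2, Rela, Relb and Rel and the 5 inhibitors Nfkbia, Nfkbib, Nfkbie, Bcl3 and Tnfaip3. Members were found by the gene symbol that the platform annotation gives to a probe set, and 9 of the 10 were found among 19505 named genes. Nfkb1 was not analysed here. The signals came from Affymetrix arrays hybridised with total RNA from mouse small intestinal crypts, the epithelial pockets that hold stem and Paneth cells. The study asked whether loss of the COP9 signalosome subunit CSN8 impairs the making of antimicrobial peptides in these crypts.

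The CSN8ΔIEC group had 3 samples from mice whose genotype name stands for loss of CSN8 in intestinal epithelial cells, and the CSN8fl/fl group had 3 samples from mice with the floxed alleles alone. All were on a C57bl/6 background. In each genotype, replicates 1 and 2 were labelled female and 16 weeks old and replicate 3 was labelled male and 10 weeks old. The labels name no Cre driver. They call the replicates biological without saying that each came from its own mouse, so the p-values speak of the spread between samples, which could be partly technical. The Y-linked genes went against the labelled sex in all 6 libraries. Eif2s3y had log2 signals of 9.87 and 9.61 in CSN8ΔIEC replicates 1 and 2 and 2.81 in replicate 3, and 9.95 and 10.10 in CSN8fl/fl replicates 1 and 2 and 4.06 in replicate 3. Replicate 3 is therefore named below by its number or by its label, and not as male.

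NF-κB proteins are dimers of 5 related subunits that are held inactive in the cytoplasm by inhibitors of the IκB family. Signals from cytokine or microbial receptors activate the IκB kinase, which marks IκBα, the Nfkbia product, for ubiquitination by a cullin-RING ligase and for destruction by the proteasome. In the alternative branch of the pathway, the Nfkb2 product is trimmed and acts together with RelB. Nfkbia and Tnfaip3 are themselves targets of NF-κB, which closes a negative feedback loop. The COP9 signalosome removes NEDD8 from cullins, the scaffolds of such ligases, and in the gut epithelium NF-κB is known for its part in barrier defence and cell survival.

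Values are log2 signals, and a difference is CSN8ΔIEC minus CSN8fl/fl on the log2 scale ± SE, from limma's moderated linear model fitted across all 19505 genes. A gene was called at a Benjamini-Hochberg adjusted p under 0.05. Precision is limited by having 3 arrays per genotype. The 15 pairs of arrays correlated with r of 0.976 to 0.993 over all probe sets, and CSN8fl/fl replicate 3 stood apart, with r of 0.976 to 0.986 with the other 5. Where leaving it out moved the difference of a gene named below by over 1.5 times, both values are given. Cops8, which encodes CSN8, had signals of 7.68, 7.61 and 7.77 in CSN8ΔIEC crypts, against 8.26, 8.22 and 8.10 in CSN8fl/fl crypts, a difference of −0.50 ± 0.11 (adjusted p = 0.0865). The groups did not overlap, but Cops8 did not pass the threshold. The position of its probes relative to the deletion was not analysed here, so this is a weak check of the labels.

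None of the 9 measured NF-κB subunits and inhibitors passed the threshold in this fit, where 1.08% of all genes did, 0.374% higher and 0.702% lower. At an unadjusted p under 0.05 there were 2, Nfkbia (higher) and Relb (lower), where 15% of all genes lay, 6.95% higher and 8.01% lower. In 3 of the 9 the arrays of the genotypes did not overlap, where this held for 22.4% of all genes, 10.7% higher and 11.7% lower. Nfkbia was higher in every CSN8ΔIEC array than in every CSN8fl/fl array, and Relb and Nfkb2 were lower. The remaining 6 members overlapped between genotypes. Without CSN8fl/fl replicate 2, the number that did not overlap was 5, as Rela and Tnfaip3 joined, where 33.1% of all genes did not overlap with that array left out. The median difference over the 9 members was −0.05, against −0.01 over all genes, and 3 of the 9 differences were above 0, against 48.2% over all genes. These shares over all genes are the background for the members' counts, and the members' counts were close to it.

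**Figure D1:**
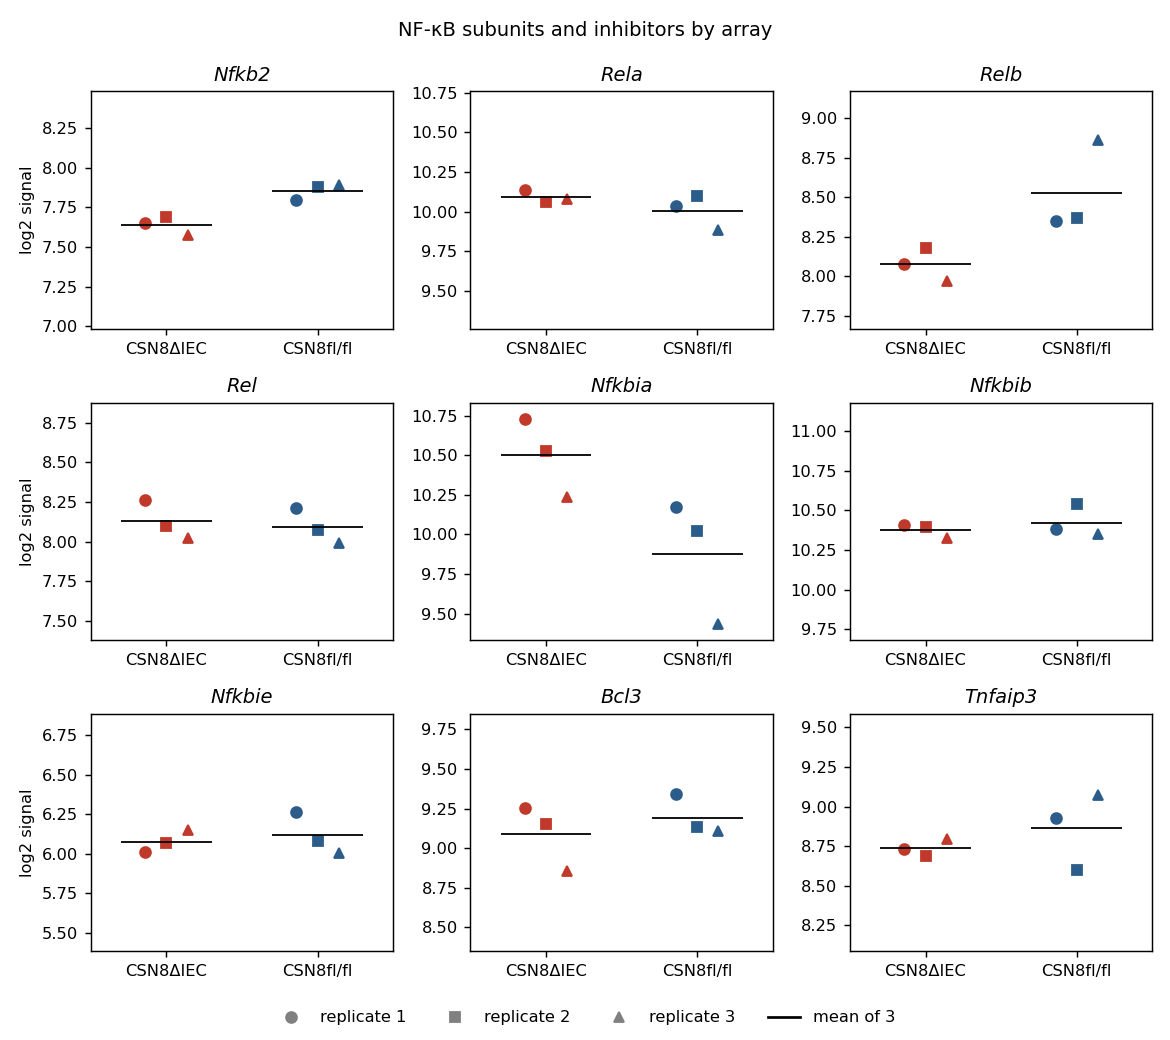
Log2 signal (y axis, each panel 1.5 units high) of the 9 measured NF-κB genes in CSN8ΔIEC arrays (red) and CSN8fl/fl arrays (blue), with the replicate given by the marker shape and the mean of 3 arrays by a line. Nfkbia lies higher, and Relb and Nfkb2 lie lower, in all CSN8ΔIEC arrays than in all CSN8fl/fl arrays, and the other 6 genes overlap.

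Among the subunits, RelB is the partner of the trimmed Nfkb2 product in the alternative branch. Relb had signals of 8.08, 8.18 and 7.97 in CSN8ΔIEC crypts, against 8.35, 8.37 and 8.86 in CSN8fl/fl crypts. All 3 CSN8ΔIEC arrays were below all CSN8fl/fl arrays, of which replicate 3 was the highest. Relb was 1.36-fold lower (−0.45 ± 0.16, 95% interval −0.81 to −0.09) and did not pass (adjusted p = 0.239). Without CSN8fl/fl replicate 3 the difference was −0.28 (adjusted p = 0.368), so that the size of the Relb value rests in part on this library.

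Nfkb2 encodes a precursor that holds RelB back until it is cut. It had signals of 7.65, 7.69 and 7.57 in CSN8ΔIEC crypts, against 7.80, 7.88 and 7.89 in CSN8fl/fl crypts. The arrays within a genotype were close to each other, with SDs of 0.059 in CSN8ΔIEC and 0.051 in CSN8fl/fl crypts, and the genotypes did not overlap. The difference was small, −0.22 ± 0.11, or 1.16-fold (adjusted p = 0.398, 95% interval −0.47 to 0.03). It was −0.20 without CSN8fl/fl replicate 3, so that this library moved Nfkb2 little. Of the other members, Nfkb2 had the profile closest to that of Relb, with a mean absolute difference of 0.14 between their centred signals over the 6 arrays. This was not mutual, as the member closest to Nfkb2 was Nfkbib, at 0.09.

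The subunits of the canonical branch overlapped between genotypes. Rela, the main transactivating subunit, had signals of 10.14, 10.06 and 10.08 in CSN8ΔIEC crypts, against 10.03, 10.10 and 9.88 in CSN8fl/fl crypts, a difference of 0.09 ± 0.11 (adjusted p = 0.759), or 0.03 without CSN8fl/fl replicate 3. A CSN8ΔIEC array was the higher in 7 of the 9 pairings of a CSN8ΔIEC with a CSN8fl/fl array. Rel encodes c-Rel, a subunit best known from lymphocytes. It had 8.26, 8.10 and 8.02 in CSN8ΔIEC crypts, against 8.21, 8.07 and 7.99 in CSN8fl/fl crypts, so that each genotype spanned nearly the same range. The Rel difference was 0.04 ± 0.12 (adjusted p = 0.913), and it was −0.03 without CSN8ΔIEC replicate 1 and −0.01 without CSN8fl/fl replicate 3. The 95% intervals, which are not adjusted over all genes, ran from −0.17 to 0.35 for Rela and from −0.24 to 0.32 for Rel. Differences within these intervals, in either direction, are not excluded.

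Nfkbia, which encodes IκBα, the inhibitor that is destroyed and made anew in each round of canonical signalling, had the widest spread of the 9 members, 1.29 between its lowest and highest array. Its signals were 10.73, 10.53 and 10.24 in CSN8ΔIEC crypts, against 10.17, 10.02 and 9.44 in CSN8fl/fl crypts. All 9 pairings had the CSN8ΔIEC array higher, by 0.064 at the least and 1.29 at the most. Nfkbia was 1.54-fold higher (0.62 ± 0.21, 95% interval 0.15 to 1.09) and did not pass (adjusted p = 0.211). In each genotype replicate 3 was the lowest array. Without CSN8fl/fl replicate 3, the lowest of all, the difference was 0.40 (adjusted p = 0.352). Within replicates 1 and 2 alone, labelled female, it was 0.53 (adjusted p = 0.28).

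The other IκB proteins showed no such order. Nfkbib, which encodes IκBβ, had signals of 10.41, 10.40 and 10.32 in CSN8ΔIEC crypts, against 10.38, 10.54 and 10.35 in CSN8fl/fl crypts, a difference of −0.05 ± 0.11 (adjusted p = 0.879). Nfkbie, which encodes IκBε, had 6.01, 6.07 and 6.15 in CSN8ΔIEC crypts, against 6.26, 6.08 and 6.00 in CSN8fl/fl crypts, a difference of −0.04 ± 0.12 (adjusted p = 0.904). Their 95% intervals were −0.30 to 0.21 for Nfkbib and −0.31 to 0.23 for Nfkbie. Without CSN8fl/fl replicate 3 the differences were −0.08 for Nfkbib and −0.10 for Nfkbie. The mean signal of Nfkbie was only just above the 40th percentile of all genes (6.08), the level below which a gene is called dim here.

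Bcl3, an atypical IκB protein that works in the nucleus, had signals of 9.25, 9.15 and 8.86 in CSN8ΔIEC crypts, against 9.34, 9.13 and 9.11 in CSN8fl/fl crypts, a difference of −0.10 ± 0.14 (adjusted p = 0.767). CSN8ΔIEC replicate 3 was the lowest array, and without it the Bcl3 difference was 0.0099. Tnfaip3 encodes a ubiquitin-editing enzyme that shuts off signalling upstream of the IκB kinase, and like Nfkbia it is induced by NF-κB. It had 8.74, 8.69 and 8.80 in CSN8ΔIEC crypts, against 8.93, 8.60 and 9.08 in CSN8fl/fl crypts. The CSN8ΔIEC arrays were close together and lay inside the wider range of the CSN8fl/fl arrays. The difference was −0.13 ± 0.14 (adjusted p = 0.719, 95% interval −0.45 to 0.20). Leaving out CSN8fl/fl replicate 2 gave −0.26, and leaving out CSN8fl/fl replicate 3 gave −0.02.

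**Figure D2:**
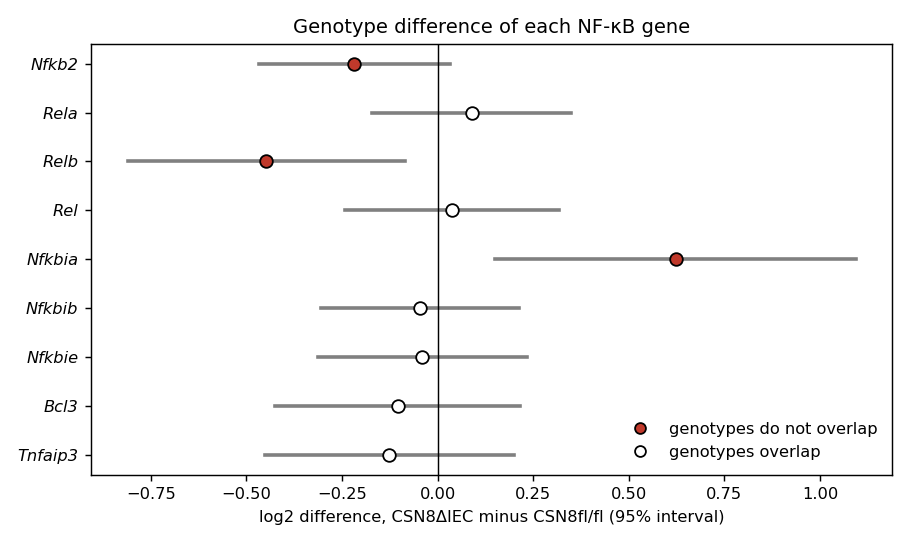
Log2 difference, CSN8ΔIEC minus CSN8fl/fl (x axis), for the 9 NF-κB genes (y axis), as points with 95% intervals from the limma fit (n = 3 arrays per genotype). Filled points mark genes whose genotypes do not overlap. The intervals of Nfkbia (0.15 to 1.09) and Relb (−0.81 to −0.09) do not reach 0, but neither gene passes after adjustment over all genes.

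The members differed in how they varied among arrays. Nfkbia stood furthest from the rest, and its mean absolute difference from the centred profile of Relb, the farthest member, was 0.54. Rela and Nfkbib were the closest of any 2 members, at 0.069. The measure is not scaled for spread, so members that vary little lie close by it. The ranges over the 6 arrays were 0.25 for Rela and 0.21 for Nfkbib, against 1.29 for Nfkbia. The genotype differences of Rela and Nfkbib had opposite signs (0.09 and −0.05). Over all genes, those nearest to Nfkbia by this measure, over the 6 arrays, were Ggct at 0.043, E2f3 at 0.066 and Hspd1 at 0.070. With 6 arrays and many genes such nearness is a description only. CSN8fl/fl replicate 3 was the highest array for 3 of the 9 members and the lowest for 4. CSN8ΔIEC replicate 1 was also the highest for 3 and CSN8ΔIEC replicate 3 the lowest for 4, so neither count alone sets CSN8fl/fl replicate 3 apart.

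**Figure D3:**
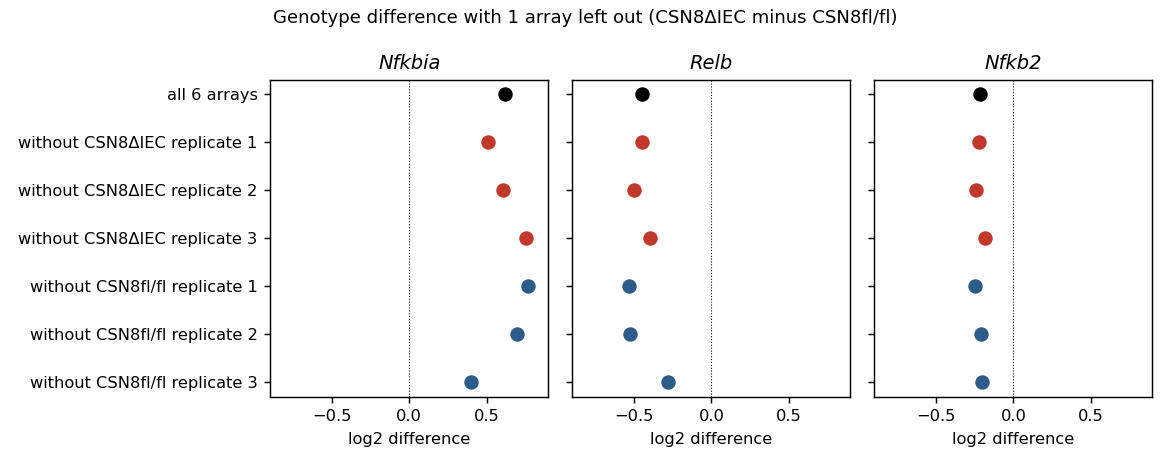
Log2 difference, CSN8ΔIEC minus CSN8fl/fl (x axis), of Nfkbia, Relb and Nfkb2 with all 6 arrays (black) and with each CSN8ΔIEC array (red) or CSN8fl/fl array (blue) left out in turn. Nfkbia stays between 0.40 and 0.77, Relb between −0.54 and −0.28 and Nfkb2 between −0.25 and −0.19, and the smallest Nfkbia and Relb differences are those without CSN8fl/fl replicate 3.

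The labelled sex and age, which change together, were set against the members in a model with genotype. None of the 9 passed for replicate 3 minus replicates 1 and 2, where 0.0154% of all genes did. Nfkbia was the 1 member with an unadjusted p under 0.05, at −0.53 ± 0.14 (adjusted p = 0.778), where 6.16% of all genes lay. Labelled sex and age are balanced over the genotypes, so having them in the model leaves the Nfkbia genotype difference at 0.62 by design. Its adjusted p in that model was 0.0789. The interaction of genotype with labelled sex and age passed in none of the members, where 0% of all genes did. Relb had an interaction of −0.66 ± 0.22 (adjusted p = 0.44), with a genotype difference of −0.89 in replicate 3 and −0.23 in replicates 1 and 2. Each genotype had 1 array of replicate 3, so this interaction rests on 2 arrays. At an unadjusted p under 0.05, 1 member and 10.1% of all genes lay in that test.

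To mark stretches that match the letters of a κB element of NF-κB, the 250 bases before each annotated start were searched. The search ran on both strands in RefSeq promoters of build GRCm38.p6, for GGG, any 5 bases and CC, and for the stricter κB consensus. Of the 10 listed genes, 8 matched an entry, with 11 starts. The looser pattern was in 10 of these 11 windows, but also in 45.8% of all 32851 windows of this length. The stricter κB consensus, every match of which also matches the looser pattern, was in 7 of the 11 windows, of 5 genes (Nfkb2, Rel, Nfkbia, Nfkbie and Tnfaip3), and in 3.90% of all windows. Windows of the autoregulated inhibitors Nfkbia and Tnfaip3 and of the subunits Nfkb2 and Rel are printed 5′ to 3′ on the gene's strand, ending at the base before the start, with matches to the κB consensus in capitals. For Nfkb2 and Tnfaip3 the start shown is the one with the most matches.
Nfkbia, chr12:55492648-55492897, minus strand: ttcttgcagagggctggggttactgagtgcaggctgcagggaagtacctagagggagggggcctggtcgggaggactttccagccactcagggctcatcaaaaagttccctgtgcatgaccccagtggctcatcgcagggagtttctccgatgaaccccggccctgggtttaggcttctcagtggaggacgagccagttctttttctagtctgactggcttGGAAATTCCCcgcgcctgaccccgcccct
Tnfaip3, chr10:19015411-19015660, minus strand: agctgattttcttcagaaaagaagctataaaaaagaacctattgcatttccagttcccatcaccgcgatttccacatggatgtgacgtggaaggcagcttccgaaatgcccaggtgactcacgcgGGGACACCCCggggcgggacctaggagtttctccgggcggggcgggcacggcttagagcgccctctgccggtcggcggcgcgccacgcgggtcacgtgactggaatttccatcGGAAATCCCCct
Nfkb2, chr19:46304487-46304736, plus strand: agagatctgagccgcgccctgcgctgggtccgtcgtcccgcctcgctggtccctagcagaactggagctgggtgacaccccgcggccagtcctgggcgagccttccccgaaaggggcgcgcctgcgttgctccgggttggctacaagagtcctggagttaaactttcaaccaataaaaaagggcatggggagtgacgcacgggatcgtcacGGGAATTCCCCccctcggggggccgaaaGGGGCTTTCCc
Rel, chr11:23770970-23771219, minus strand: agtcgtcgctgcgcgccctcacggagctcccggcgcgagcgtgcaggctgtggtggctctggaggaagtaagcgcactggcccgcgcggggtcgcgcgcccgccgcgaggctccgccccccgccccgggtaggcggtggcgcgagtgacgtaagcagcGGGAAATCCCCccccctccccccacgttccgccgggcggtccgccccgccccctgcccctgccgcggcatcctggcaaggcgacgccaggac

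Each of these 4 windows holds a match, as does that of Nfkbie, whose genotypes overlapped (−0.04). None of these genes passed the threshold, so their directions are described only. Nfkbia was higher in every CSN8ΔIEC array (0.62), Nfkb2 was lower in every CSN8ΔIEC array (−0.22), and Tnfaip3 (−0.13) and Rel (0.04) overlapped. In the Nfkbia window the match lies 29 to 20 bases before the start, and in the Nfkb2 window the match nearest to the start lies 11 to 2 bases before it. A match is a description of letters, and binding was not measured.

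Upstream of the members, the receptors held the called genes. Of 17 receptors that signal to NF-κB, 2 rose and 0 fell, where 1.08% of all genes were called. The median difference of the 17 was 0.02. Tlr4, the receptor for bacterial lipopolysaccharide, had signals of 7.78, 6.90 and 7.07 in CSN8ΔIEC crypts, against 5.05, 6.06 and 5.37 in CSN8fl/fl crypts. Every CSN8ΔIEC array was higher, and Tlr4 rose (1.76 ± 0.29, adjusted p = 0.0284). Nod1, a cytosolic sensor of bacterial cell wall fragments, had 6.61, 6.73 and 6.68 in CSN8ΔIEC crypts, against 6.01, 5.81 and 6.06 in CSN8fl/fl crypts, and rose (0.71 ± 0.12, adjusted p = 0.0301). All CSN8fl/fl signals of both genes lay below the dim level of 6.08, so each is above that level only through its CSN8ΔIEC arrays, and no fold is given. Tlr4 did not pass without CSN8ΔIEC replicate 1 or 3 or CSN8fl/fl replicate 1 or 3 (adjusted p up to 0.1), and Nod1 passed only without CSN8fl/fl replicate 3 when 1 array was left out (adjusted p up to 0.124). Neither passed among labelled females alone (adjusted p = 0.191 for Tlr4 and 0.114 for Nod1). The receptor with the next smallest p was Tnfrsf1b, named after its values were seen. It was higher in every CSN8ΔIEC array and did not pass (0.56 ± 0.12, adjusted p = 0.0752).

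Of the receptors that can engage the alternative branch, 5 are described, and none passed. They, the ligand Tnf and the kinase genes of the next paragraph other than Map3k8 and Map3k3 were chosen after their values were seen. Ltbr, the lymphotoxin receptor, differed by 0.01 ± 0.11 (adjusted p = 0.975), or 0.03 without CSN8fl/fl replicate 3. Tnfrsf13c, the BAFF receptor, differed by −0.44 ± 0.22 (adjusted p = 0.396), and Tnfrsf11a, the receptor RANK, by −0.08 ± 0.14 (adjusted p = 0.82), or −0.21 without CSN8fl/fl replicate 3. Cd40, which activates the alternative branch in B cells, had signals of 6.03, 5.59 and 6.47 in CSN8ΔIEC crypts, against 6.59, 6.74 and 6.71 in CSN8fl/fl crypts (−0.65 ± 0.20, adjusted p = 0.187). Tnfrsf12a, the receptor of the cytokine TWEAK, had 8.60, 8.66 and 8.62 in CSN8ΔIEC crypts, against 7.84, 8.09 and 8.34 in CSN8fl/fl crypts (0.54 ± 0.14, adjusted p = 0.131). Cd40 and Tnfrsf12a did not overlap between genotypes. Of 11 ligands none passed, and the 2 with the smallest p were Tnfsf13b, the B cell survival factor BAFF (−0.998 ± 0.30, adjusted p = 0.17), and the cytokine Il18 (−0.67 ± 0.21, adjusted p = 0.188). CSN8fl/fl replicate 3 was the highest array for both, and without it the differences were −0.61 for Tnfsf13b and −0.42 for Il18. Tnf had 6.41, 6.90 and 6.56 in CSN8ΔIEC crypts, against 6.06, 6.36 and 5.14 in CSN8fl/fl crypts (0.77 ± 0.29, adjusted p = 0.26), and its genotypes did not overlap. Without CSN8fl/fl replicate 3, the lowest array, the Tnf difference was 0.41.

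Between the receptors and the inhibitors, 0 of 21 adaptors and ubiquitin ligases and 0 of 11 kinases passed, with medians of −0.03 and −0.05. At an unadjusted p under 0.05 there were 3 adaptors, all lower, and 0 kinases, where 15% of all genes lay, 8.01% lower. The adaptors with the smallest p were Ticam1 and Irak3. Ticam1, which serves the receptors of viral RNA and lipopolysaccharide, differed by −0.41 ± 0.15 (adjusted p = 0.25), or −0.27 without CSN8fl/fl replicate 3. Irak3, a kinase-like brake on signalling, differed by −0.33 ± 0.14 (adjusted p = 0.324). Of the IκB kinase subunits, the catalytic Ikbkb differed by 0.05 ± 0.14 (adjusted p = 0.888) and the regulatory Ikbkg by −0.07 ± 0.14 (adjusted p = 0.851). Without CSN8fl/fl replicate 3 these were 0.09 for Ikbkb and 0.03 for Ikbkg, so that Ikbkg has no settled direction. Map3k14, the kinase that starts the alternative branch, had 7.63, 7.28 and 7.67 in CSN8ΔIEC crypts, against 7.60, 7.74 and 7.56 in CSN8fl/fl crypts (−0.10 ± 0.14, adjusted p = 0.772). The kinases with the smallest p were Map3k8, a dim gene (0.32 ± 0.15, adjusted p = 0.356), and Map3k3 (−0.23 ± 0.12, adjusted p = 0.413).

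Of the 22 genes of the IκB ubiquitin ligase, the neddylation enzymes and the COP9 signalosome none passed, where 1.08% of all genes did. Their median difference was 0.07, and 18 differences were above 0, against 48.2% over all genes. In CSN8fl/fl replicate 3 these genes had a median deviation of −0.125 from the mean of all arrays. Without that array fewer of the differences were above 0, so the count of 18 rests in part on it. Apart from Cops8, the smallest p was that of Gps1, which encodes signalosome subunit 1 (0.38 ± 0.13, adjusted p = 0.231). Of 20 atypical and minor regulators none passed. Nfkbid, an atypical nuclear IκB protein, had 7.33, 7.24 and 7.16 in CSN8ΔIEC crypts, against 7.05, 6.83 and 6.75 in CSN8fl/fl crypts, without overlap (0.36 ± 0.13, adjusted p = 0.224). Nkrf, a repressor of NF-κB target genes, differed by 0.29 ± 0.16 (adjusted p = 0.425), or 0.17 without CSN8fl/fl replicate 3.

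Downstream, 1 of 40 NF-κB target genes rose and 0 fell, where 0.374% of all genes rose and 0.702% fell. The median difference of the 40 was 0.0032, with 20 of 40 above 0. The called gene was Il1rn, which encodes the interleukin 1 receptor antagonist. It had signals of 8.06, 7.41 and 7.95 in CSN8ΔIEC crypts, against 5.61, 5.80 and 5.37 in CSN8fl/fl crypts, and rose (2.21 ± 0.19, adjusted p = 0.00248). Its CSN8fl/fl signals all lay below the dim level, so that Il1rn too is above it only through its CSN8ΔIEC arrays. At an unadjusted p under 0.05 there were 3 target genes higher and 2 lower, where 6.95% of all genes lay higher and 8.01% lower. Of the 40 targets, 16 were dim, among them Il6, Il1b and Cxcl1, which were chosen after their values were seen.

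**Figure D4:**
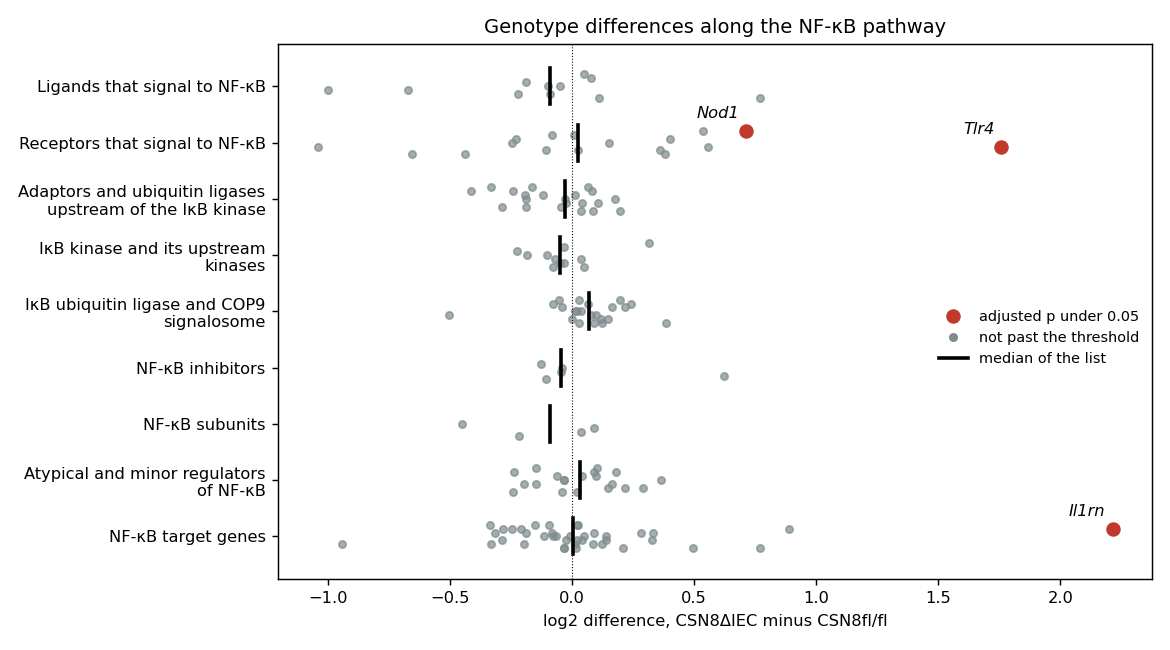
Log2 difference, CSN8ΔIEC minus CSN8fl/fl (x axis), of every measured gene in 9 groups along the NF-κB pathway (y axis), with large red points for genes past the adjusted threshold and a bar for each group's median. Tlr4 and Nod1 among the receptors and Il1rn among the targets are the called genes, and the group medians lie between −0.09 and 0.07.

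NF-κB genes are expressed in immune cells as well as epithelium, and in bulk RNA fewer cells of a type and less RNA per cell cannot be told apart. All 11 epithelial markers measured were above the 40th percentile of all genes and none passed, and those with the smallest p were the Paneth cell lysozyme Lyz1 (−0.51 ± 0.22, adjusted p = 0.324) and the cadherin Cdh1 (0.14 ± 0.11, adjusted p = 0.561). All 9 T cell markers were above it too. Their summed linear signals ranged from 2434 to 3434 in CSN8ΔIEC and from 3120 to 5113 in CSN8fl/fl crypts, none passed, and their median difference was −0.32. CSN8fl/fl replicate 3, the array with the highest Relb signal, had T cell markers 0.57 above the mean of the 6 arrays in the median, and without it the median difference of these markers was 0.02. Ptprc, the pan-leukocyte CD45 gene, had 7.93, 8.47 and 8.35 in CSN8ΔIEC crypts, against 9.04, 8.95 and 9.91 in CSN8fl/fl crypts (−1.05 ± 0.26, adjusted p = 0.106), and Cd3d, of the T cell receptor complex, differed by −0.51 ± 0.16 (adjusted p = 0.184). The part of T cell RNA in the Relb and Nfkb2 values was not tested.

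Other cell types were mostly dim. Of the B cell and plasma cell markers 3 of 9 were above that percentile and none passed, with summed signals of 452 to 609 in CSN8ΔIEC and 419 to 727 in CSN8fl/fl crypts. Their median difference was −0.39, and 1 of the 9, the plasma cell gene Jchain, was above 0 (1.51 ± 0.46, adjusted p = 0.181, and 0.94 without CSN8fl/fl replicate 3). Ms4a1, which encodes the B cell antigen CD20, differed by −0.87 ± 0.29 (adjusted p = 0.206). Ms4a1 passed among labelled females alone and without CSN8fl/fl replicate 3 (−1.24, adjusted p = 0.0284), as did Cd79a of the B cell receptor, named after its values were seen. With all arrays Cd79a did not pass and its genotypes overlapped (−0.64 ± 0.45, adjusted p = 0.534). Without CSN8fl/fl replicate 3 the Cd79a difference was −1.28. Of the myeloid markers 3 of 11 were above it and none passed, with sums of 3393 to 5621 in CSN8ΔIEC and 5466 to 8457 in CSN8fl/fl crypts. The lysozyme gene Lyz2 (−0.72 ± 0.25, adjusted p = 0.226) made up 76.8% to 87% of the sum in CSN8ΔIEC and 89.5% to 90.7% in CSN8fl/fl crypts. The sums therefore follow that gene and are not read as an amount of myeloid RNA. Like the Paneth cell gene Lyz1, Lyz2 was lowest in CSN8ΔIEC replicate 2 and highest in CSN8fl/fl replicate 1. Whether their signals are related was not tested. The myeloid median was −0.09 with 5 of 11 above 0, and Cd14, the lipopolysaccharide co-receptor, differed by 0.75 ± 0.28 (adjusted p = 0.263), or 0.37 without CSN8fl/fl replicate 3. Of the stromal and endothelial markers 4 of 11 were above it, and sums were 871 to 1563 in CSN8ΔIEC and 765 to 927 in CSN8fl/fl crypts. The stromal median difference was 0.08, with 8 of 11 above 0. Dcn had 9.59 in CSN8ΔIEC replicate 3, against 7.07 to 7.79 in the other arrays, so the highest sum rests in part on it. Acta2, a smooth muscle actin with dim signals, rose (0.66 ± 0.12, adjusted p = 0.0366), but did not pass once any 1 array was left out (adjusted p up to 0.157). Des, also dim, was lower in every CSN8ΔIEC array and did not pass (−0.49 ± 0.12, adjusted p = 0.113). Dcn and Des were named after their values were seen. The part of these other cell types in the members' values was not tested either.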

How the data were processed

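The authors deposited 1 log2 signal per probe set and array, for which the submitters' processing notes name Partek 6.6 and RMA, a method of background correction, quantile normalisation and summarisation. Log2 differences were computed here from these deposited values. The sources used here name no settings and no genome build. The table held 22206 probe sets, of which 19572 had 1 symbol in the platform annotation, 0 had several and 2634 are unnamed here. Where several probe sets shared a gene (55 genes), the brightest on average was kept, which left 19505 genes. All 9 members had 1 probe set.

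Genotypes were compared with limma 3.58.1 in R 4.3.3 (lmFit, eBayes, 8.85 degrees of freedom after moderation), two-sided, with Benjamini-Hochberg adjustment across all genes. The fit was tested on simulated data. Dim means a mean signal at or below the 40th percentile of all genes. All members and lists were chosen with earlier results of these data known, and the stricter promoter pattern was added after the looser one had been searched. Genes named beyond the members were Cops8, the Y-linked genes, the 3 genes nearest to the most variable member and, from each list, all past the threshold or otherwise the 2 with the smallest p. Exceptions are stated. Alternatives were a filter on dim genes, replicate number as a block, labelled sex and age as a covariate, labelled females alone, other array scalings, all probe sets, trended robust variances, array weights and each array left out. Same-numbered samples did not deviate together (r of 0.12, −0.02 and 0.04 over all genes for replicates 1, 2 and 3). With 3 arrays per genotype this cannot exclude pairing, and the labels give replicate 3 of both genotypes the same sex and age.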

Additional observations from a re-analysis of the deposited data

Results flagged for a closer look

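Nfkbie, the gene of IκBε, differed in direction between the labelled sexes and ages. In replicates 1 and 2, labelled female, both CSN8ΔIEC arrays were below both CSN8fl/fl arrays (difference −0.13), and in replicate 3, labelled male, the CSN8ΔIEC array was above the CSN8fl/fl array by 0.147. The interaction of 0.28 ± 0.24 did not pass in limma (adjusted p = 0.712), and it rests on 1 array per genotype at the labelled age of 10 weeks.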

How the results depend on the processing

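Under each of the 15 alternatives, 0 of the 9 members passed the threshold. Nfkbia, Relb, Nfkb2, Rela and Tnfaip3 kept their direction in all 15. The dim filter, replicate block, sex and age covariate, all probe sets and trended robust variances cannot change a member's difference, only its p-value. Direction could therefore change only under the other alternatives. The adjusted p was 0.0789 to 0.503 for Nfkbia, 0.163 to 0.592 for Relb and 0.254 to 0.697 for Nfkb2. With 1 array left out in turn, the difference ranged from −0.030 to 0.097 for Rel, from −0.083 to 0.011 for Nfkbib, from −0.096 to 0.035 for Nfkbie and from −0.19 to 0.0099 for Bcl3, so these 4 have no settled direction. The number of members that did not overlap ranged from 3 to 5 with 1 array left out, where 29.8% to 35.5% of all genes did not overlap, and was 4 among labelled females alone, where 42.9% did not. The count of all called genes, 210, ranged from 41 (without CSN8ΔIEC replicate 1) to 228 (without CSN8fl/fl replicate 1) with 1 array left out, and was 97 among labelled females alone. With the replicate block it was 202, where no member was called and Tlr4 (adjusted p = 0.059), Nod1 (adjusted p = 0.0727) and Acta2 (adjusted p = 0.0856) did not pass. None of these 3 passed among labelled females alone (adjusted p of 0.191, 0.114 and 0.204 for Tlr4, Nod1 and Acta2), and Acta2 did not with the sex and age covariate (adjusted p = 0.0512). Tlr4 passed in 9 and Nod1 in 8 of the 15 alternatives, and Acta2 in 5 of 14. Il1rn passed under all 15, among them the filter on dim genes, which Tlr4, Nod1 and Il1rn pass only through their CSN8ΔIEC arrays. Cops8 passed with dim genes filtered out (adjusted p = 0.0464), a filter that leaves no value for Map3k8, Ms4a1 or Acta2. The receptor gene Tnfrsf1b also passed under that filter, and with array weights. Array signals have no read depth, and Nfkbie is the member whose mean lies nearest to the dim level.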
